A study of Mus musculus with 10 samples.

Results

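The 39 Hox genes of the mouse HoxA, HoxB, HoxC and HoxD clusters were followed in RNA-sequencing libraries of trigeminal ganglia, the paired cranial ganglia whose neurons carry facial touch, pain and temperature. Members were all genes whose symbol is Hox, a cluster letter from a to d and a number. All 39 were found among the 55414 gene IDs, and 5 of them were among the 18005 genes that passed the filter on low counts. The ganglia came from C57Bl6 embryos at E13.5. The knockout group (KO) held 5 libraries of genotype Prdm12-/- (replicates 16, 29, 42, 49 and 50), and the wild-type group (WT) held 5 of genotype Prdm12+/+ (replicates 22, 24, 32, 35 and 45). Both groups carry the label Sox10 Venus+. The loss of Prdm12 is constitutive, so it was not limited to the ganglion. The labels name no cell sorting, do not state which portion of the gene is missing from the mutant allele, and never call the libraries separate embryos. The p-values below therefore speak of the spread among these libraries, which may be technical. Sample titles begin with a different letter in each genotype, and only the wild-type titles hold the words Venus plus. Any difference in handling or selection therefore cannot be told apart from genotype.

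Hox genes encode homeodomain transcription factors that give cells their position along the head-to-tail axis. Their order in each cluster follows the order of their anterior limits, with low-numbered paralog groups reaching into the hindbrain and high-numbered groups kept to the tail end. The trigeminal ganglion arises from placode and from neural crest at the front of the hindbrain, mostly ahead of the Hox-expressing territory. An exception is Hoxd1, which in the mouse is a gene of nociceptors, the pain-sensing neurons whose formation requires the zinc finger protein Prdm12.

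In the HoxD cluster the low-numbered end holds Hoxd3, Hoxd4, the long noncoding RNA gene Haglr and Hoxd1. The annotated Hoxd3 begins before Hoxd4, on the side of Hoxd8. Haglr and Hoxd1 are transcribed away from each other, with 83 bases between their annotated starts in GENCODE M21. The 250 bases before the RefSeq starts of Hoxd1 and Hoxd3 are shown because these genes, and Haglr, had lower mean levels in the knockout. Both are from RefSeq on build GRCm38.p6, plus strand, at chr2:74762730-74762979 for Hoxd1 and chr2:74711743-74711992 for Hoxd3, and 22 of the 39 members had an entry in that promoter table. Capitals mark the bases between the Haglr and Hoxd1 starts in the sequence of Hoxd1, and the match to CCAAT in the sequence of Hoxd3.
Hoxd1: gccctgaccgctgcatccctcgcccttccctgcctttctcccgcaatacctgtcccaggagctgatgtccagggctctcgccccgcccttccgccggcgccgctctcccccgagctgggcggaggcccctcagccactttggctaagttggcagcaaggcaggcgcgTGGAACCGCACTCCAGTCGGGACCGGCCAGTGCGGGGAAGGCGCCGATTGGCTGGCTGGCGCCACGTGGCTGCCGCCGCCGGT
Hoxd3: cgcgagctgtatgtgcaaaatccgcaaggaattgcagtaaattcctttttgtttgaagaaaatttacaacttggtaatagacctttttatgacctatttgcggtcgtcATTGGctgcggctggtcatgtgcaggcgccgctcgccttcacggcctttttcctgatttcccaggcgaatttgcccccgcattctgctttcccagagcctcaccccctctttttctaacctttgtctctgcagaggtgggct

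The bases G and C made up 71.6% of the Hoxd1 window and 49.2% of the Hoxd3 window. CCAAT, searched on both strands after the sequences had been read, occurred once in each window, beginning 37 bases before the start of Hoxd1 and 142 bases before that of Hoxd3. It also occurred in 33.8% of 32851 RefSeq promoter windows of this length. The Hox and Pbx site TGATNNAT, present in 7.68% of windows, was in neither. The homeodomain site TAATTA, present in 4.84%, was absent from these windows too. So were the Runx site TGTGGT, present in 14.05% of windows, and the core promoter element TATAAA, present in 12.4%. A match is a description of letters only.

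The targeted gene Prdm12 separated the genotypes without overlap, at 18.2 ± 14.1 CPM (counts scaled to the library total with TMM factors) in KO and 182 ± 76.7 CPM in WT (SD, n = 5 each). Library totals ran from 3258008 (KO 49) and 13603690 (KO 29) to 33556002 counts (KO 16), so 3 counts, the limit that a count of 0 allows, corresponded to 0.869 CPM in KO 49, 0.236 CPM in KO 29 and 0.0889 to 0.107 CPM elsewhere. These limits cover counting error only. General sensory neuron markers summed to 3473 to 9615 CPM in KO and 4704 to 8628 CPM in WT, with KO 29 highest. Their median log2 fold change was -0.72, with 6 of 7 tested genes below 0, so the overlapping sums do not show equal neuron content. None of 18 central neural tube markers was at 0 in all libraries. WT 32 and WT 35 are known from earlier results of these data to stand apart from the other wild-type libraries, and values were recomputed without them.

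Most Hox genes were at or near 0. Of the 39 genes, 4 had no count in any library (Hoxa11, Hoxc9, Hoxc10 and Hoxc11), 17 reached at most 1 or 2 counts, and 18 reached 3 counts in at least 1 library. Only Hoxd1 and Hoxd8 had at least 3 counts in all 10 libraries. Hoxd3 missed that mark in KO 49 alone, with 1 count.

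The counts were concentrated at the anterior end of the clusters. Paralog groups 1 to 4 had 12 members, 11 of which reached 3 counts in some library, with 9987 counts over all libraries together. Groups 5 to 8 had 11 members with 238 counts in all, 174 of them from Hoxd8. Groups 9 to 13 had 16 members with 73 counts in all, and none exceeded 8 counts in a library. By cluster, 6 of 9 HoxD genes, 5 of 11 HoxA genes, 5 of 10 HoxB genes and 2 of 9 HoxC genes reached 3 counts, and the highest HoxC count was 5 (Hoxc4 in KO 49).

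**Figure D1:**
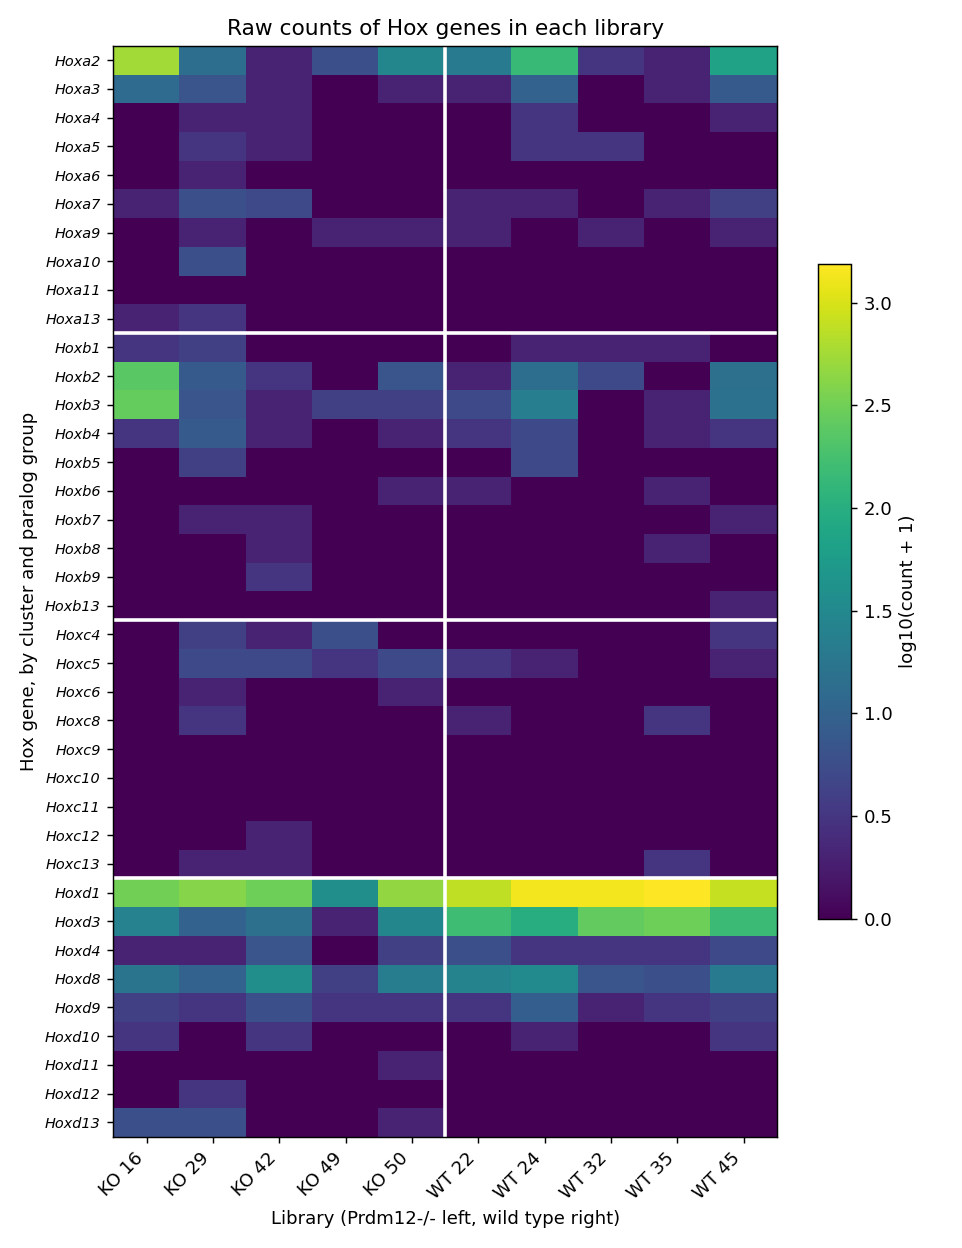
Raw counts of Hox genes (rows, by cluster and paralog group) in the 5 knockout libraries on the left and the 5 wild-type libraries on the right, coloured by log10(count + 1). The brightest cells lie in Hoxd1, in Hoxd3 of the wild-type libraries and in Hoxa2, Hoxb2 and Hoxb3 of KO 16.

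Hoxd1 carried most Hox reads in every library but KO 16. It made up 22.03% of all Hox counts in KO 16 (325 counts) and 62.7% to 80.4% in the other knockout libraries, against 73.0% to 82.6% in WT. Per kilobase of merged exon in the GENCODE M21 models, Hoxd1 averaged 8.53 CPM per kb in KO and 21.0 CPM per kb in WT. Hoxa2 averaged 2.28 and Hoxd3 0.153 CPM per kb in KO, against 0.860 and 1.58 CPM per kb in WT. Hoxd8 stood at 0.299 CPM per kb in KO and 0.214 CPM per kb in WT, and Hoxb3 at 0.452 CPM per kb in KO and 0.0658 CPM per kb in WT. Hoxd3 was therefore below Hoxa2, Hoxb3 and Hoxd8 per length in KO, and above all 3 in WT, but the Hoxa2 and Hoxb3 means in KO rested on KO 16. Part of the Hoxd3 exon length is shared with other genes, as given below, so its level per length may be too low or too high.

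The sum of all 39 genes was 27.1 ± 13.8 CPM in KO and 49.2 ± 13.01 CPM in WT. Without Hoxd3 it was 26.5 ± 13.7 CPM in KO and 42.6 ± 11.4 CPM in WT, and the groups overlapped in both sums. The HoxD genes summed to 17.8 ± 9.44 CPM in KO and 46.6 ± 13.7 CPM in WT, the HoxA genes to 4.86 ± 7.10 CPM in KO and 1.84 ± 2.17 CPM in WT, and the HoxB genes to 3.76 ± 6.39 CPM in KO and 0.636 ± 0.599 CPM in WT. The groups overlapped in each, through KO 29 for HoxD, and KO 16 had the highest HoxA and HoxB sums (17.4 and 15.1 CPM). The HoxC genes summed to 0.663 ± 0.829 CPM in KO and 0.0748 ± 0.0566 CPM in WT, and no HoxC gene had more than 5 counts in a library.

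Hoxd3 fell in the knockout and was the 1 member of 5 tested that passed the threshold (adjusted p below 0.05, edgeR's quasi-likelihood test adjusted over all 18005 genes). Of all tested genes 0.467% were called in either direction, 0.372% lower and 0.0944% higher. DESeq2 called 2 of the 5 members lower (Hoxd1 and Hoxd3), where it called 2.98% of its genes in either direction and 1.23% lower. Hoxd3 (ENSMUSG00000079277) encodes a homeodomain factor of paralog group 3, known in the mouse for patterning the upper cervical vertebrae. It had 0.741, 0.708, 0.498, 0.290 and 0.978 CPM in KO 16, 29, 42, 49 and 50, against 5.17, 3.07, 9.15, 10.5 and 5.25 CPM in WT 22, 24, 32, 35 and 45. Every knockout library was below every wild-type library. The log2 fold change was -3.26 (SE 0.40, adjusted p = 0.00447), a 9.56-fold lower level in KO. Of all tested genes 2.92% had every knockout library below every wild-type library, 1.29% had the reverse, and 4.21% had either. Hoxd3 had been singled out with this result already known. WT 32 and WT 35 gave its highest values, and without them the log2 fold change was -2.64 (adjusted p = 0.0298).

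Hoxd1 (ENSMUSG00000042448), the nociceptor-associated member of paralog group 1, was lower in the knockout in 4 of 5 libraries. It had 9.63, 31.8, 10.9, 10.7 and 16.4 CPM in KO 16, 29, 42, 49 and 50, against 25.2, 42.9, 46.7, 52.7 and 28.4 CPM in WT 22, 24, 32, 35 and 45. KO 29 lay inside the wild-type range, and the other 4 knockout libraries were below all wild-type libraries. The log2 fold change was -1.30 (SE 0.35) and did not pass over all genes (edgeR adjusted p = 0.153). DESeq2 called it (adjusted p = 0.0257), and so did edgeR without KO 29, with a log2 fold change of -1.68 (adjusted p = 0.0287). KO 29 also had the highest summed markers of glia (5054 CPM) and of sensory neurons in general (9615 CPM), and their part in its Hoxd1 value was not tested.

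Haglr (ENSMUSG00000075277), the noncoding gene beside Hoxd1, showed the same arrangement of libraries. It had 3.91, 12.6, 3.81, 3.19 and 4.47 CPM in KO 16, 29, 42, 49 and 50, against 13.3, 9.81, 24.9, 25.7 and 14.4 CPM in WT 22, 24, 32, 35 and 45. KO 29 again lay inside the wild-type range. The log2 fold change was -1.64 (SE 0.42, edgeR adjusted p = 0.128), and without KO 29 it was -2.14 (adjusted p = 0.0187). The DESeq2 test called it with all libraries included (adjusted p = 0.00854).

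**Figure D2:**
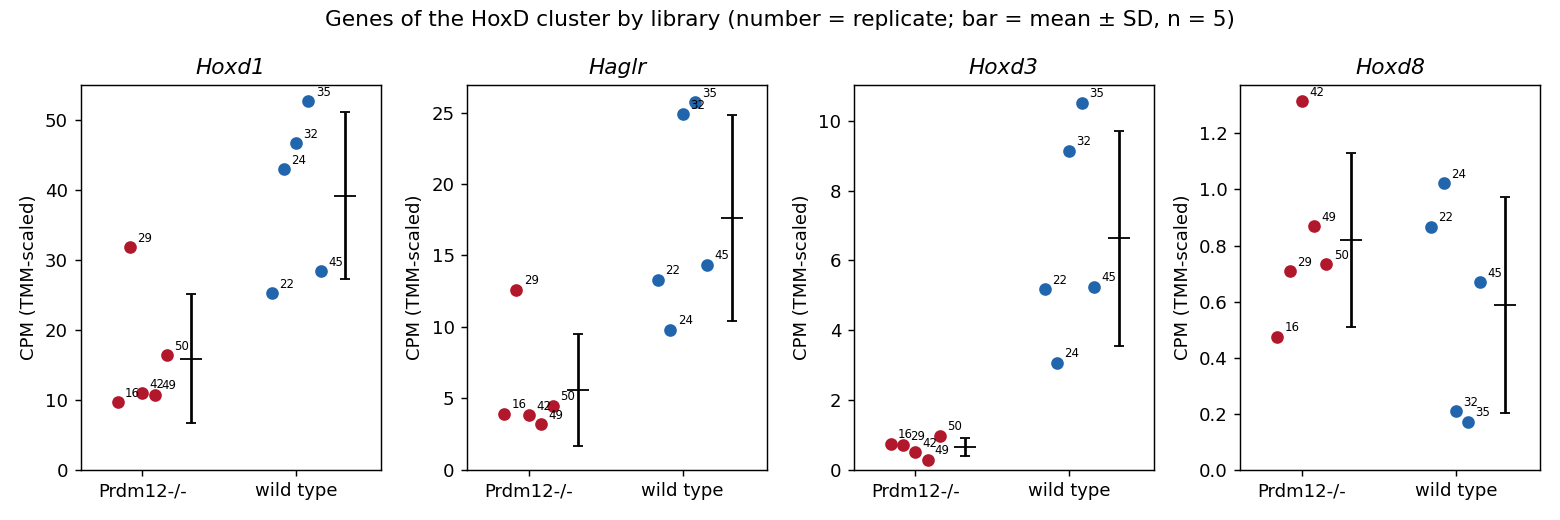
CPM of Hoxd1, Haglr, Hoxd3 and Hoxd8 in each library, knockout left and wild type right in each panel, with replicate numbers and the mean ± SD of 5 libraries. Hoxd3 at 0.290 to 0.978 CPM in KO lay apart from 3.07 to 10.5 CPM in WT, KO 29 joined the wild-type range for Hoxd1 and Haglr, and the groups overlapped for Hoxd8.

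Hoxd8 showed no such separation. Hoxd8, of paralog group 8, had 0.474, 0.708, 1.32, 0.869 and 0.734 CPM in KO 16, 29, 42, 49 and 50, against 0.867, 1.02, 0.208, 0.171 and 0.669 CPM in WT 22, 24, 32, 35 and 45. Its log2 fold change was 0.47 (SE 0.51, edgeR adjusted p = 0.704), and WT 32 and WT 35 were the lowest libraries. Without those 2 libraries it was -0.02, so no direction can be given for Hoxd8. Hoxd4, of group 4, had 11 counts in all knockout libraries together and 15 in all wild-type libraries together. Hoxd9 had 14 counts in KO and 16 in WT.

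Gm14424 and Gm14426 are further noncoding genes annotated between Hoxd3 and Hoxd1, chosen after their values had been seen. Of the 895 merged exon bases of Gm14424 in GENCODE M21, 260 are shared with Haglr on the opposite strand. Whether strand was used in counting is not stated, so the values of Gm14424 and Haglr may not be independent. Gm14424 averaged 0.694 ± 0.290 CPM in KO and 3.38 ± 2.08 CPM in WT (SD, n = 5 each). Its log2 fold change was -2.20 (SE 0.59, edgeR adjusted p = 0.149). Gm14426 averaged 0.473 ± 0.256 CPM in KO and 1.48 ± 0.979 CPM in WT, a log2 fold change of -1.81 (SE 0.60, edgeR adjusted p = 0.245). WT 24 lay within the knockout range of Gm14424 and below that of Gm14426, and neither passed the edgeR threshold. WT 24 also had the lowest Hoxd3 and Haglr values of the wild-type libraries, though not the lowest Hoxd1.

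Of the 7 tested genes annotated from Evx2 to Hoxd1, edgeR called 1 lower (Hoxd3), against 0.372% of all tested genes. Of these 7, 5 had a log2 fold change below 0. The median was -1.64, against -0.03 over all tested genes. The 7 include Hoxd3, singled out with its fall known, so these values are a description. DESeq2 gave an adjusted p for 8 genes of this stretch and called 4 lower (Hoxd3, Hoxd1, Haglr and Gm14424), against 1.23% of its genes. Haglr and Gm14424 share exon bases, as given above. Evx2, the homeobox gene at the far end of the cluster, had 8.03 CPM in KO 16 and at most 1.57 CPM in the rest of the KO group, against 0.0341 to 0.767 CPM in WT (edgeR adjusted p = 0.366).

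**Figure D3:**
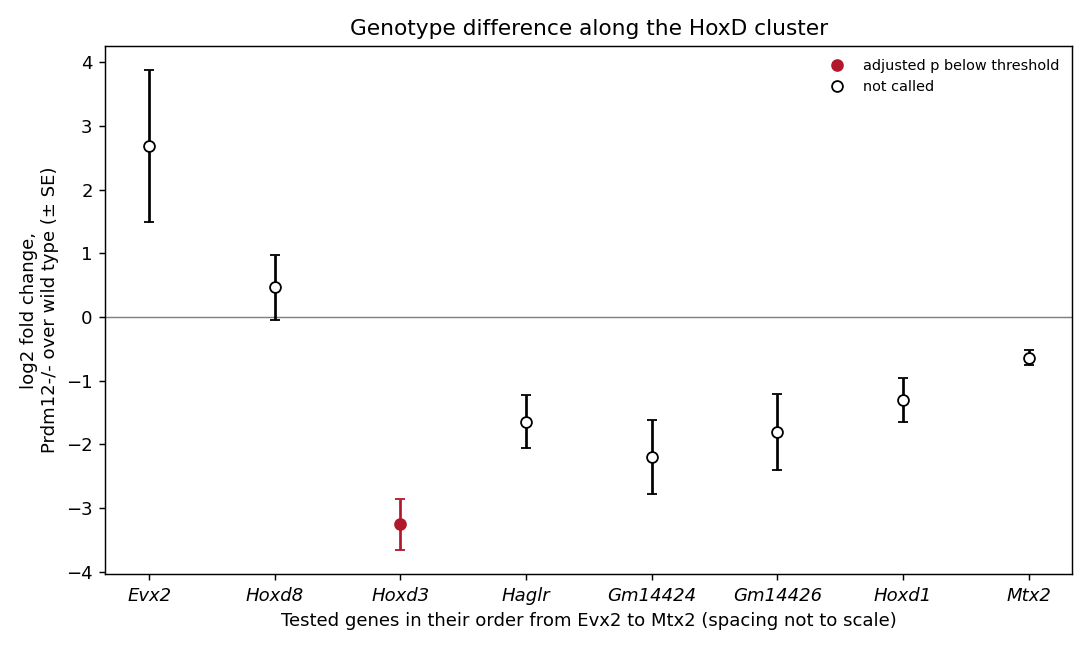
Log2 fold change (knockout over wild type, ± SE) of the tested genes of the HoxD cluster and Mtx2 in their chromosomal order, with equal spacing. Hoxd3 (-3.26) is the 1 called gene, Haglr, Gm14424, Gm14426 and Hoxd1 lie between -2.20 and -1.30, and Hoxd8 and Evx2 lie above 0.

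The protein-coding gene after Hoxd1 is Mtx2, a component of the mitochondrial outer membrane import machinery. Mtx2 averaged 63.0 ± 4.71 CPM in KO and 97.9 ± 14.2 CPM in WT, and every knockout library was below every wild-type library. Its log2 fold change of -0.64 (SE 0.12) missed the threshold (edgeR adjusted p = 0.0524). Lnpk, on the Evx2 side, stood at 49.8 ± 10.8 CPM in KO and 63.1 ± 12.5 CPM in WT (edgeR adjusted p = 0.461), and Hnrnpa3 at 42.6 ± 10.3 CPM in KO and 52.4 ± 2.97 CPM in WT (edgeR adjusted p = 0.473).

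In the list of HoxD noncoding and flanking genes, 0 of 5 tested members were called by edgeR, 3 had an unadjusted p under 0.05 (Haglr, Mtx2 and Evx2), against 13.1% of all tested genes, and DESeq2 called Haglr and Mtx2 lower. The antisense gene Hoxd3os1 was not tested, with 0.149 ± 0.112 CPM in KO and 0.262 ± 0.0703 CPM in WT. Mir10b, a microRNA gene of the cluster, had 1 count in all libraries together, in WT 22.

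The annotated exons of Hoxd3 are not all its own. Of 4191 merged exon bases in GENCODE M21, 388 are shared with Hoxd4, 2225 with the read-through gene Gm28230, 347 with Hoxd3os1 on the opposite strand and 21 with Haglr on the opposite strand. Hoxd1 shares no exon base with another gene of the cluster. Gm28230 had 6 counts over all libraries. Hoxd4 shares 1154 of its 2948 exon bases with Gm28230. The sources used here do not give how reads in shared exons were assigned or whether strand was used. Some reads under the name Hoxd3 may therefore belong to these genes, and some Hoxd3 or Hoxd4 reads may have gone uncounted. The per-kilobase level of Hoxd3 and its comparisons with Hoxd1 and Hoxd4 carry this limit.

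Hoxd3 was next set against 6 other Hox genes within each library, as the difference of their log2 CPM values (prior count 2). Since Hoxd3 was singled out with its fall known, these differences are a description, and no test is given for them. Hoxd3 minus Hoxd1 averaged -4.40 ± 0.71 in KO and -2.62 ± 0.64 in WT, a genotype difference of -1.77 on the log2 scale (SD, n = 5 each). In raw counts there were 7.69, 2.23, 4.56, 2.703 and 5.98 Hoxd3 reads per 100 Hoxd1 reads in KO 16, 29, 42, 49 and 50, against 20.5, 7.15, 19.6, 19.9 and 18.5 in WT 22, 24, 32, 35 and 45. WT 24 was just below KO 16, and the 2 groups were otherwise apart.

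Hoxd3 minus the cluster neighbour Hoxd4 was 2.196 ± 0.73 in KO and 5.12 ± 0.87 in WT, with no overlap (difference -2.93). Against the group 3 paralogs, Hoxd3 minus Hoxa3 was 1.84 ± 1.11 in KO and 5.22 ± 1.62 in WT (difference -3.38), and Hoxd3 minus Hoxb3 was 0.14 ± 2.50 in KO and 4.64 ± 2.11 in WT (difference -4.50). Hoxd4 and Hoxa3 had at most 12 counts in a library, so their differences mostly restate the level of Hoxd3 and depend on the prior count.

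Against the group 2 genes, Hoxd3 minus Hoxb2 was 0.66 ± 2.22 in KO and 4.79 ± 1.81 in WT (difference -4.13). The groups did not overlap at prior count 2 but overlapped at prior count 0.5. Hoxb2 had at most 14 counts in any library but KO 16, so this separation depends on the prior count. Hoxd3 minus Hoxa2 was -0.91 ± 2.49 in KO and 3.19 ± 3.06 in WT, with overlap (difference -4.11). All 6 differences were below 0 in each alternative run.

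**Figure D4:**
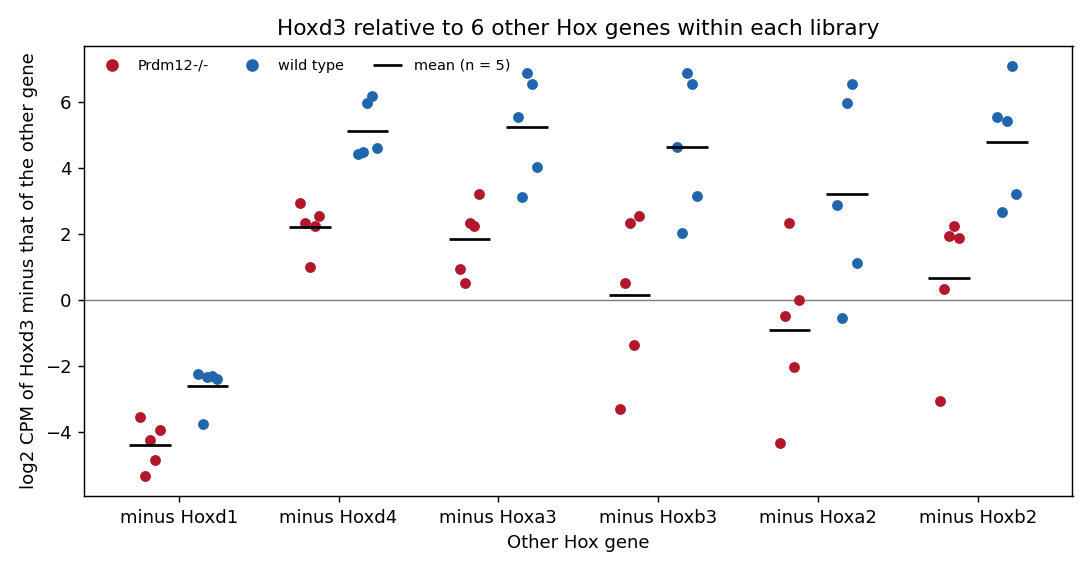
Log2 CPM of Hoxd3 minus that of 6 other Hox genes within each library, knockout left of wild type for each gene, with the mean of 5 libraries as a bar. Groups are fully apart for Hoxd4 and Hoxb2, and touch at 1 library for Hoxd1, where WT 24 at -3.77 lies below KO 16 at -3.57.

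Hoxa2 and Hoxb3 did not pass the threshold, Hoxb2 was not tested, and all 3 were highest in KO 16. Hoxa2 encodes the factor that gives the hyoid arch and the front of the hindbrain their identity. It had 16.7, 1.02, 0.0356, 1.45 and 0.978 CPM in KO 16, 29, 42, 49 and 50, against 0.634, 4.54, 0.0693, 0.0341 and 2.36 CPM in WT 22, 24, 32, 35 and 45. KO 16 was highest, followed by WT 24 and WT 45, and the groups overlapped. The log2 fold change was 1.45 (SE 1.30, edgeR adjusted p = 0.637), and without KO 16 it was -0.98 (adjusted p = 0.741).

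Hoxb3, expressed in the hindbrain behind the Hoxb2 limit, had 8.12, 0.472, 0.0356, 0.869 and 0.105 CPM in KO 16, 29, 42, 49 and 50, against 0.133, 0.703, 0, 0.0341 and 0.528 CPM in WT 22, 24, 32, 35 and 45. KO 16 was highest, all other libraries were below 1 CPM, and the KO 49 value rests on 3 counts. The log2 fold change was 2.83 (SE 1.30, edgeR adjusted p = 0.380), and without KO 16 it was -0.23 (adjusted p = 0.949). Hoxb2, a hindbrain gene that did not pass the count filter, had 232, 7, 2, 0 and 6 counts in KO 16, 29, 42, 49 and 50, against 1, 13, 4, 0 and 14 counts in WT 22, 24, 32, 35 and 45.

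KO 16 also had the most RNA of central neural tube markers. The 18 markers summed to 338, 92.7, 20.0, 58.2 and 85.8 CPM in KO 16, 29, 42, 49 and 50, against 35.5, 74.9, 17.7, 15.2 and 54.6 CPM in WT 22, 24, 32, 35 and 45. KO 16 was highest for both, and WT 32, WT 35 and KO 42 were the 3 lowest for both, while KO 29 and KO 50 had higher sums but less Hoxa2 than WT 24. Pax2, a marker of hindbrain and spinal interneurons, had 53.6 CPM in KO 16, 13.4 CPM in WT 24 and 9.58 CPM in WT 45, and at most 8.89 CPM elsewhere. Their part in the Hoxa2, Hoxb2 and Hoxb3 values was not tested.

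None of the 14 tested markers was called by edgeR, 4 had an unadjusted p under 0.05 (13.1% of all tested genes did), and the median log2 fold change was 1.41, with 1 of 14 below 0. Nkx6-1, a factor of ventral neural progenitors, stood at 6.34 ± 4.10 CPM in KO and 0.627 ± 0.638 CPM in WT with no overlap (edgeR adjusted p = 0.0645), and limma-voom called it higher. DESeq2 called Nkx6-1, Nkx6-2 and Pax3 higher. Without KO 16, WT 24 and WT 45, a set chosen after seeing the data, the log2 fold change of Hoxd3 was -3.54 (adjusted p = 0.0307).

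**Figure D5:**
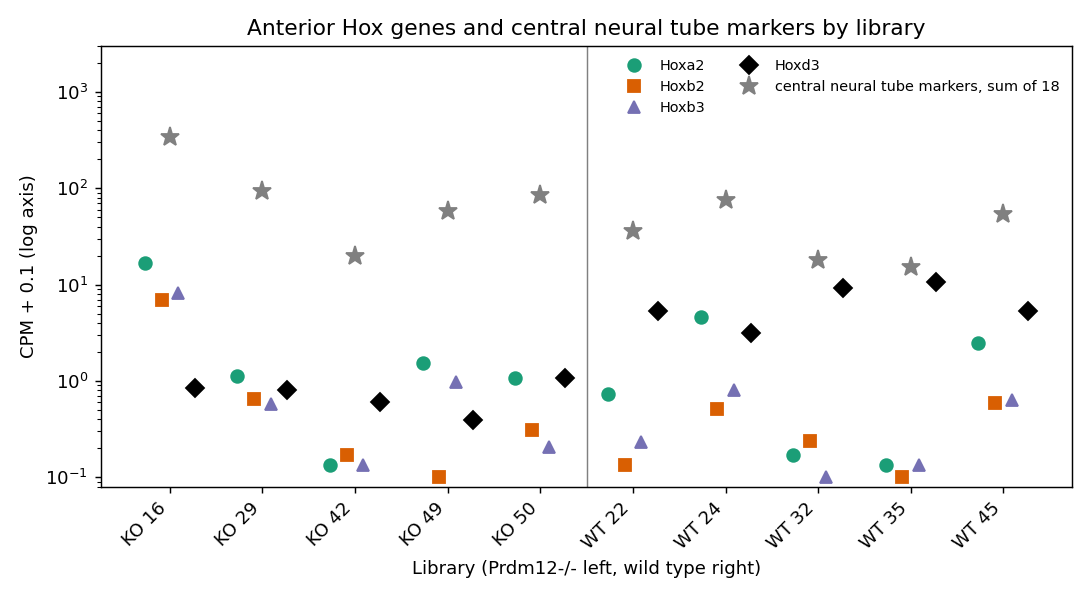
CPM + 0.1 on a log axis of Hoxa2, Hoxb2, Hoxb3 and Hoxd3 and the summed CPM + 0.1 of 18 central neural tube markers in each library, knockout left. KO 16 stands highest for Hoxa2 (16.7 CPM), Hoxb3 (8.12 CPM) and the markers (338 CPM), while Hoxd3 separates the genotypes.

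Noncoding genes of the HoxA and HoxB clusters had the same high library. Hoxaas2, an antisense gene of the HoxA cluster, had 20.7 CPM in KO 16 and at most 1.74 CPM in the rest of the KO group, against 0.0683 to 3.49 CPM in WT (edgeR adjusted p = 0.470). Hoxb3os had 167 counts in KO 16 and at most 2 in the other knockout libraries, against 0 to 9 counts in WT. Of the 13 noncoding genes listed for the other 3 clusters, 6 had no count in any library, Hotair among them, and 1 was tested (not called by edgeR, DESeq2 or limma-voom).

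The other 13 members that reached 3 counts somewhere were not tested. Among them, Hoxa3 reached 12 counts (KO 16), Hoxb4 7 (KO 29), Hoxb1 3 (KO 29) and Hoxc4 5 (KO 49). Hoxa7 reached 5 (KO 29), Hoxb5 4 (WT 24) and Hoxc5 4 (KO 29, KO 42 and KO 50). Hoxd9 reached 8 (WT 24), Hoxd4 6 (KO 42) and Hoxa10 5 (KO 29). Hoxd13, the gene of paralog group 13 that patterns digits, had 5, 5, 0, 0 and 1 counts in KO 16, 29, 42, 49 and 50, against 0 counts in each WT library. KO 29, though 1 of the 2 shallowest libraries, had a count for 28 of the 39 members, the most of any library, against 9 to 22 in the other knockout libraries and 11 to 19 in WT.

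At 0.869 CPM, the limit of the shallowest library, 4, 2, 2, 5 and 3 members were detected in KO 16, 29, 42, 49 and 50, against 2, 4, 2, 2 and 3 in WT 22, 24, 32, 35 and 45. Hoxd1 was among them in each library. In KO 49 the other 4 genes had 3 to 5 counts.

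Hoxd1 is usually counted among nociceptor genes. Of 12 tested nociceptor genes 7 fell by edgeR (Runx1, Scn10a, Trpv1, Gal, Th and Ret among them), none rose and 5 did not pass, against 0.372% of all tested genes called lower. The median log2 fold change was -1.95, against -0.03 over all tested genes, and 10 of 12 were below 0. Ret and Th lost their calls without WT 32 and WT 35, which left 5, and without any of KO 42, KO 49, WT 32 or WT 35 alone. Ret also lost its call without KO 16, KO 29, KO 50 or WT 45, and 4 genes were called without KO 29 and KO 49. The list summed to 779 to 1124 CPM in KO and 1629 to 4266 CPM in WT, and WT 32 was highest. Runx1, a Runt-domain regulator of pain neurons, averaged 16.3 ± 1.43 CPM in KO and 90.1 ± 36.8 CPM in WT (log2 fold change -2.47, SE 0.25, edgeR adjusted p = 0.00127). In bulk libraries such as these, fewer cells of a type and less RNA per cell cannot be told apart, and the part of the nociceptor change in the Hoxd3 and Hoxd1 values was not tested.

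Among markers of other cell types, edgeR called P2rx2 and Gata3 higher, of the 6 tested genes of visceral sensory neurons. Of all tested genes 0.0944% were called higher. Of the 6 visceral genes, 4 had an unadjusted p under 0.05 in edgeR, the median log2 fold change was 2.08 and 0 were below 0. No gene was called in the lists of mesenchyme, general sensory neurons, glia, endothelium, macrophages, muscle and epithelium. P2rx2, an ATP-gated channel, stood at 17.2 ± 2.96 CPM in KO and 4.03 ± 1.74 CPM in WT, and the transcription factor gene Gata3 at 7.83 ± 3.28 CPM in KO and 1.86 ± 0.574 CPM in WT. Neither P2rx2 nor Gata3 was called without WT 32 and WT 35, without KO 29 and KO 49, or without KO 16, WT 24 and WT 45, and Gata3 was also lost without KO 50, WT 22, WT 32, WT 35 or WT 45. Unadjusted p-values under 0.05 were found for 13.1% of all tested genes. They were found for 5 of 5 tested genes of endothelium and 4 of 7 of general sensory neurons. For mesenchyme it was 1 of 11, for glia 1 of 7, for macrophages 1 of 4, for epithelium 1 of 3 and for muscle 0 of 4. The median log2 fold change was 1.11 for endothelium, with 0 of 5 genes below 0. For general sensory neurons it was -0.72, with 6 of 7 below 0. DESeq2 called Cdh5, Flt1 and Kdr of endothelium higher and Elavl4 of sensory neurons lower, and limma-voom called none of these 7 lists. Their part in the Hox values was not tested.

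The genes whose profile over the 10 libraries was most like that of Hoxd3 were sought among 15551 tested genes with a mean of at least 1 CPM, by the root-mean-square difference of log2 CPM after centring each gene on its own mean. Gal, the neuropeptide galanin, was nearest at 0.39 log2 units, with 11.5 ± 4.63 CPM in KO and 97.6 ± 41.4 CPM in WT. Among the next 9 were Serpinb8 (0.55), a serine protease inhibitor, and Kcnh6 (0.57), a voltage-gated potassium channel. Runx1 (0.58), Cdhr1 (0.59), a cadherin of photoreceptors, Layn (0.59), a hyaluronan receptor, and Slco4a1 (0.61), an organic anion transporter, were also among them, with the unnamed genes Gm12119 (0.49) and Gm2824 (0.50). All 10 had a log2 fold change between -3.37 and -2.47, and 9 of them passed the edgeR threshold, Slco4a1 being the exception (adjusted p = 0.0501). The likeness rests largely on the genotype difference they share.

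Prdm12 ranked 26 of the 15551 genes by this measure (0.75), Haglr 47 (0.86) and Hoxd1 100 (1.07). The chromosomal neighbours Haglr and Hoxd1 were thus near the top of the ranking. The 10 genes above are the nearest by definition, so no contrast with them is drawn.

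Hox proteins bind DNA together with partners of the Pbx, Meis and Pknox families, and those genes did not pass the threshold. None of 9 tested cofactor genes was called by edgeR, DESeq2 or limma-voom, 2 had an unadjusted p under 0.05 in edgeR (Pbx2 and Pbx3; 13.1% of all tested genes), and the median log2 fold change was 0.07. Meis2 averaged 233 ± 125 CPM in KO and 207 ± 38.1 CPM in WT.

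Polycomb proteins keep Hox clusters silent and Trithorax proteins keep them active. Of 24 tested genes of both groups, edgeR called none, 1 had an unadjusted p under 0.05 (13.1% of all tested genes), and the median log2 fold change was 0.03. DESeq2 called 1 gene of this list higher, and limma-voom called none. Kmt2a, a Trithorax methyltransferase, stood at 219 ± 19.2 CPM in KO and 212 ± 56.7 CPM in WT. Phc2, a Polycomb subunit, stood at 202 ± 74.9 CPM in KO and 218 ± 34.1 CPM in WT.

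Retinoic acid switches on anterior Hox genes, and Cdx factors switch on posterior ones. Of 17 tested genes of this list, edgeR called none and 3 had an unadjusted p under 0.05 (13.1% of all tested genes). DESeq2 called Rdh10 and Aldh1a3 higher and Stra6 lower, and limma-voom called none. Rdh10, which makes the precursor of retinoic acid, stood at 58.0 ± 29.8 CPM in KO and 20.3 ± 6.82 CPM in WT (edgeR adjusted p = 0.0841). Stra6, the retinol uptake receptor, stood at 47.9 ± 21.6 CPM in KO and 115 ± 38.7 CPM in WT, with no overlap (edgeR adjusted p = 0.140). Crabp2, a binding protein for retinoic acid, stood at 93.6 ± 37.6 CPM in KO and 107 ± 27.6 CPM in WT. Cdx2 had no count in any library.

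Among 6 tested regulators of hindbrain segments, edgeR called none, 2 had an unadjusted p under 0.05 (13.1% of all tested genes), and limma-voom and DESeq2 called 1, Efnb2, higher. Efnb2, an ephrin of segment borders and vessels, stood at 187 ± 14.5 CPM in KO and 127 ± 9.54 CPM in WT with no overlap (edgeR adjusted p = 0.0517). Egr2, which directs segments in the hindbrain and also marks Schwann cells, stood at 8.05 ± 3.20 CPM in KO and 4.13 ± 2.08 CPM in WT (edgeR adjusted p = 0.307). Ephb2, a receptor for ephrins, stood at 138 ± 33.5 CPM in KO and 102 ± 25.6 CPM in WT.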

How the data were processed

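The authors deposited raw counts per gene, 1 file per sample, for 5 Prdm12-/- and 5 wild-type samples. Per the submitters' processing notes, the tools were featureCounts 1.5.0-p1, STAR 2.7.10a and bcl2fastq 2.20.0.422, and the builds GRCm39 and mm10 are named without roles. Which annotation and strand setting the authors chose, and how they treated multiply mapped reads, is not stated in the labels. A table of gene IDs and symbols matched 52081 IDs. Exon lengths and overlaps came from GENCODE M21 (GRCm38) and sequences from RefSeq (GRCm38.p6), which need not be the build of the counts.

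Genes were kept with filterByExpr (minimum count 10), scaled with TMM factors and tested with edgeR 4.0.16 (glmQLFit, glmQLFTest) under R 4.3.3, with Benjamini-Hochberg adjusted p-values across the whole table and a cutoff at 0.05. Groups and replicate numbers came from sample titles, and the groups share no number. DESeq2 1.42.0, limma-voom (limma 3.58.1), other scalings and filters and leaving out libraries were alternatives. Steps were tested on simulated data. Exact permutation p-values of Hoxd3 minus other Hox genes were computed and are not given, since Hoxd3 was singled out with its fall known. The 20 same-genotype library pairs differed by at least 9.88 chi-square units per gene, more than counting noise, which does not show that they come from different embryos. That lowest value was for WT 32 and WT 35, and the next wild-type pair, WT 22 and WT 45, was at 27.9. WT 32 and WT 35, which gave the highest Hoxd3 values, were thus the most alike of the wild-type libraries. Members, lists and tests were chosen with earlier results of these data known. Named genes were the tested members, the 7 anterior members compared with each other, members with at least 3 counts, the called and 2 most abundant genes of each Hox-related list, and the 10 genes most like Hoxd3. Of the tissue marker lists, those that bear on a member are given. A few genes that this rule would name are not reported here.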

Additional observations from a re-analysis of the deposited data

Results flagged for a closer look

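In 5 libraries of a group, 3 values of 26 groups checked stood farther from the nearest library than Dixon's 95% limit, and chance alone flags about 1 group in 20. Hoxa2 in KO 16 was at 16.7 CPM, with the next knockout library at 1.45 CPM. Hoxb3 in KO 16 was at 8.12 CPM, with the next at 0.869 CPM. Hoxd3 minus Hoxd1 in WT 24 was at -3.77 log2 units, with the next wild-type library at -2.42.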

How the results depend on the processing

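No paired analysis was possible because the groups share no replicate numbers. Hoxd3 was called lower in all 20 alternatives (log2 fold change -3.54 to -2.64, adjusted p = 7.87e-12 to 0.0478, over edgeR, DESeq2 and limma-voom). Hoxd1 was below 0 in all 20 (-1.68 to -0.97) and called in 2, as was Haglr (-2.14 to -1.09). Signs turned for Hoxa2 (-0.98) and Hoxb3 (-0.23) without KO 16 and for Hoxd8 (-0.018) without WT 32 and WT 35. Over single libraries left out, Hoxa2 ran from -0.98 to 2.49 and Hoxb3 from -0.23 to 3.57. Members called lower numbered 2 with DESeq2 and 1 to 2 with a library left out, and members reaching a count of 1 or 10 numbered 35 or 8, against 18 reaching 3. Over all genes, higher and lower calls were 55 and 102 with no filter, 354 and 248 with DESeq2 (where the median log2 fold change moved to 0.16), 0 and 19 without WT 32 and WT 35, and 7 and 26 without KO 16, WT 24 and WT 45. Higher calls were 6 without KO 29 and KO 49, and with 1 library left out they ran from 2 to 35, with 27 to 88 lower. Related-list calls, 9 in edgeR, were 25 with DESeq2, 5 without KO 16, WT 24 and WT 45 and 4 without KO 29 and KO 49. HoxD noncoding and flanking calls were 1 with upper-quartile factors, 2 with DESeq2 and 0 to 1 with a library left out. Without WT 32 and WT 35, Hoxd3 minus Hoxd1, Hoxd4, Hoxa3, Hoxb3 and Hoxb2 gave genotype differences of -1.57, -2.30, -2.39, -3.12 and -3.15. Without KO 29 and KO 49 they were -1.32, -2.996, -3.10, -4.17 and -4.61. With 1 library left out, the difference ran from -5.15 to -3.62 for Hoxb3 and from -5.03 to -3.24 for Hoxa2. The causes were not tested. Depth limits KO 49, where a gene below 0.869 CPM may go uncounted.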
